A study of Mus musculus with 6 samples.

Results

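Sub-cluster 5 is one of the groups into which the authors divided the astroglial cells of the mouse striatum, and its members are the cells that carry that number in the deposited annotation. It held 734 of 9992 annotated astroglial cells, of 14373 annotated cells in all. Of these, 730 came from postnatal day 3 (P3) and 4 from a library of 3-month-old (3m) mice, which were left out of all comparisons. The P3 members were compared with the other 8144 P3 astroglial cells of the same libraries, and with sub-clusters 3, 4 and 10, which stand next to sub-cluster 5 on the lineages that the study inferred.

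The study profiled striatal cell suspensions, enriched with magnetic beads against the astrocyte surface antigen ACSA2, by droplet-based single-cell RNA-seq. All mice were wild-type C57BL/6 males, 3 libraries were made at P3 and 3 at 3m, and the study's methods pooled the brains of several animals for each preparation. The subventricular zone, the stem cell niche that lines the lateral ventricle, was left out in the dissection according to the study's methods, and the bead enrichment favours cells with ACSA2 on their surface. The values are UMIs, barcoded transcripts counted a single time each, summed over the cells of a set in each library and scaled to a common total (CPM).

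Astroglia of the early postnatal forebrain descend from radial glia, the stem cells that line the ventricles of the embryo. Some radial glia become ependymal cells, which cover the ventricle and bear many motile cilia, others remain as stem cells, and others give rise to astrocytes. A motile cilium is built from microtubule doublets, dynein motors, radial spokes and a central pair. Its genes are switched on by the transcription factors Foxj1 and the Rfx family, while genes such as *Deup1* and *Ccno* take part in amplification of the centrioles from which many cilia grow. Gsx2 is a homeodomain factor of the ventral telencephalon, which patterns the lateral ganglionic eminence, the embryonic source of striatal neurons.

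The label was checked first. *Sox9*, a transcription factor of astroglia and the marker given for these cells, was at 807, 750 and 1278 CPM in P3 replicates 1, 2 and 3 of sub-cluster 5. It was at 524, 484 and 865 CPM in the other P3 astroglial cells, lower in each library, and the log2 ratio was 0.61 ± 0.04 (SD, n = 3). Of 15 astroglial identity genes, 0 were higher and 1 was lower by the rule given below, and their median log2 ratio was -0.06. In each library 8 of them had a log2 ratio below 0 and 5 above 0. Their summed level was lower, at 30599 to 34145 CPM against 40864 to 49848 CPM in the other cells. *Slc1a3*, the glutamate transporter GLAST, was at 1807, 1888 and 2305 CPM, against 2087, 1862 and 2131 CPM in the other cells. The lower gene was *S100b*, a calcium-binding protein of maturing astrocytes, at 10.1, 5.25 and 7.76 CPM against 54.7, 76.6 and 67.3 CPM.

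Sub-cluster 5 made up 2.72% of the P3 astroglial cells in replicate 1 (54 of 1985 cells, 95% Wilson interval 2.09% to 3.53%). The share was 12.3% in replicate 2 (383 of 3103 cells, 11.2% to 13.5%) and 7.74% in replicate 3 (293 of 3786 cells, 6.93% to 8.63%). The mean was 7.60% ± 4.81 (SD, n = 3), and the intervals, which cover counting error only, did not overlap between libraries. The cells held 397853, 2287198 and 1676050 UMIs in replicates 1, 2 and 3. Their median UMIs per cell were 7326, 5756 and 5547, against 9810, 8556.5 and 5440 in the other cells. The difference of -1726 ± 1595 (SD, n = 3) did not pass an exact sign-flip permutation test (two-sided p = 0.5, where 3 libraries allow no p below 0.25). Median mitochondrial shares were 2.08%, 1.58% and 1.16%, against 2.48%, 1.78% and 1.28%. No cell barcode of sub-cluster 5 occurred in more than 1 library, while 11 barcodes did so over all P3 astroglial cells.

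Other sub-clusters were spread unevenly over the libraries, which touches each comparison. Sub-cluster 1 had 1156 of its 1211 cells in replicate 1. Sub-cluster 4 had 3, 12 and 719 cells in replicates 1, 2 and 3, and sub-cluster 12 had 9, 2 and 273, with medians of 1047.5 and 985.5 UMIs per cell. In sub-cluster 5, replicate 1 rests on 54 cells.

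**Figure D1:**
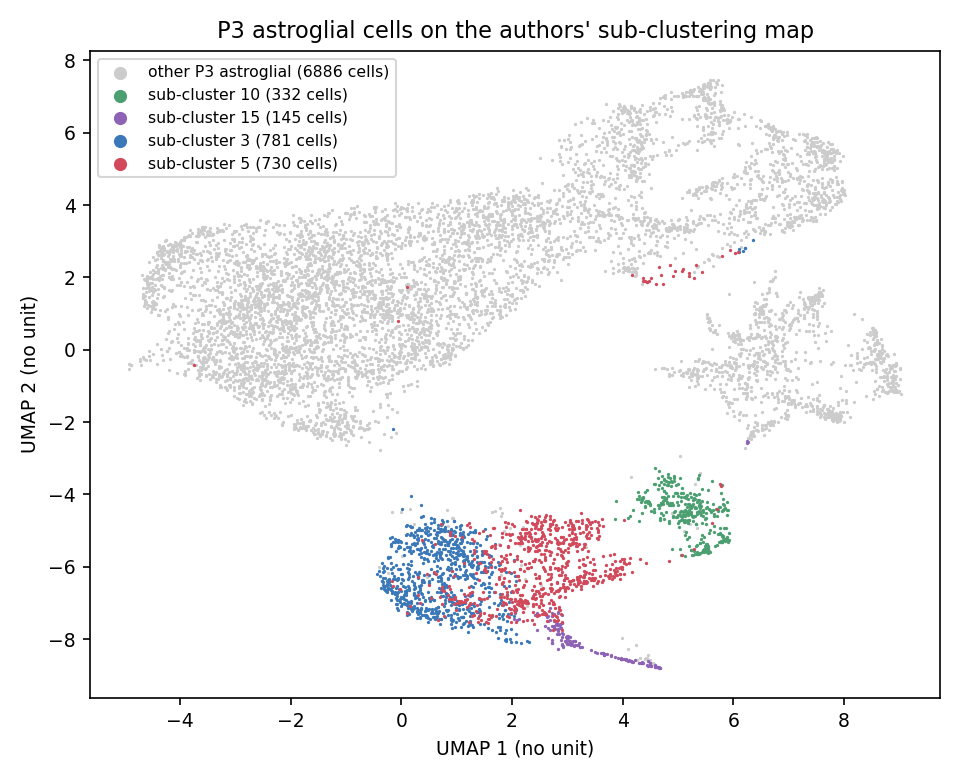
P3 astroglial cells on the authors' UMAP of the sub-clustering (axes without unit), with sub-clusters 5, 3, 10 and 15 in colour and all others in grey. The 730 cells of sub-cluster 5 lie mostly between the 781 cells of sub-cluster 3 and the 332 of sub-cluster 10, with a small group of cells beside the grey ones.

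The clusters were made from the expression of these same genes in these same cells, so a test of sub-cluster 5 against other cells would be no test. Genes are therefore described by the log2 ratio of CPM + 1 within each library, with the mean and SD over 3 libraries. A gene was called higher or lower where the ratio was at least 1 in size in the same direction in each library, among genes with a mean of at least 5 CPM. Of 10285 genes, 351 were higher in sub-cluster 5 (3.41%) and 421 were lower (4.09%), and the median log2 ratio of all 10285 genes was 0.04. Calls were split 45.5% higher, and under TMM scaling, which moved the median to -0.12, 34.5% higher. When each other sub-cluster was given equal weight, 93 genes were higher, of which 89 were among the 351. Without sub-clusters 3, 4, 10, 12 and 15, 612 genes were higher, and without replicate 3 the number was 527.

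The higher genes outside the fixed lists included *Riiad1* at 822, 769 and 820 CPM in sub-cluster 5. It was at 52.8, 173 and 184 CPM in the other cells, a log2 ratio of 2.75 ± 1.03. *Prex2*, an exchange factor for Rac, was at 146, 85.7 and 125 CPM against 8.98, 14.6 and 25.2 CPM. Neither gene overlapped between the sets of cells, but both were chosen for a large ratio in each library, so this is no separate support. *Gfra1*, the GDNF co-receptor, was at 95.5, 86.6 and 124 CPM against 7.48, 17.2 and 25.5 CPM. *Lhcgr*, the receptor of luteinizing hormone, was at 52.8, 115 and 69.8 CPM against 7.16, 20.9 and 19.1 CPM. These genes had log2 ratios of 2.31 to 2.87 on average. The rule also named *Ddo*, which oxidizes D-aspartate, *Lgals3*, a galectin, *Plagl1*, an imprinted zinc finger gene, *Tspan18*, *Mia* and *Fstl5*, with mean log2 ratios from 2.21 to 2.83.

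**Figure D2:**
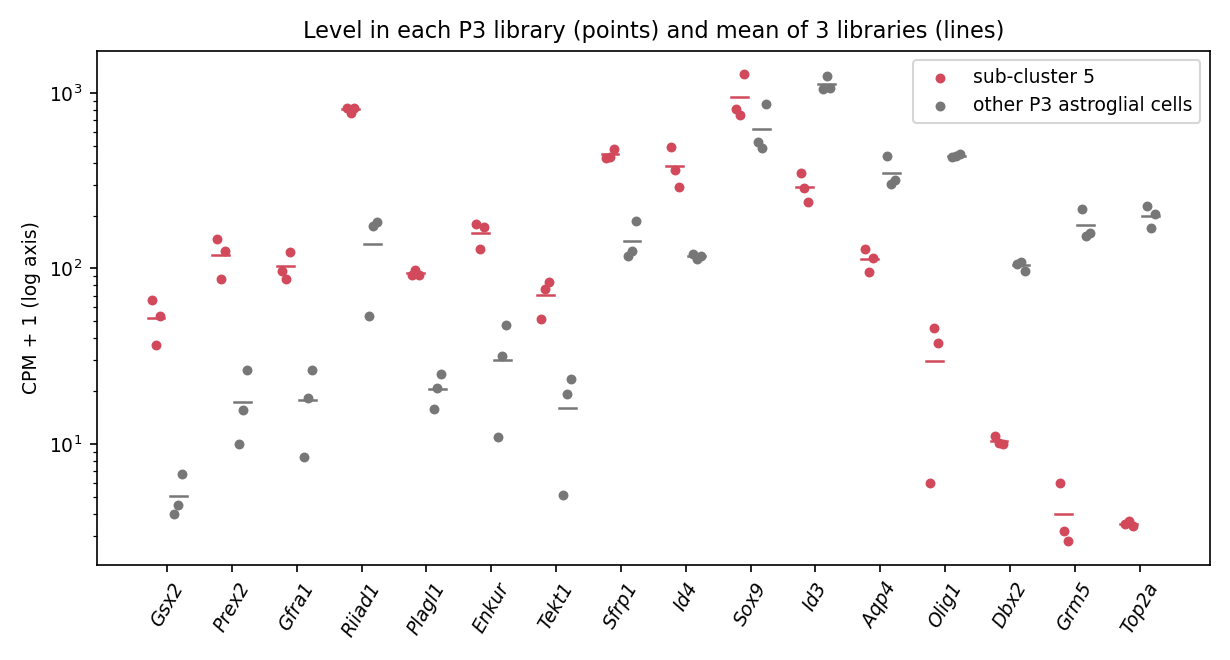
CPM + 1 on a log axis for 16 genes in sub-cluster 5 and in the other P3 astroglial cells, with a point for each of the 3 libraries and a line at their mean. *Riiad1* reached 769 to 822 CPM in sub-cluster 5 and 52.8 to 184 CPM in the other cells, while *Top2a* and *Grm5* were at most 5.03 CPM in sub-cluster 5.

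Of 78 listed genes for the structure and transport of the motile cilium, 24 were higher in sub-cluster 5 and 0 lower. Of all genes compared, 3.41% were higher and 4.09% lower. Of 9 genes of centriole amplification, 4 passed the level filter and 0 were higher, a list too short to set against that share. The 6 lists used here were compiled after values had been seen, every listed gene in the table is counted, and their genes were named with values known. Of 17 genes for tektins and other proteins of the microtubule doublet, 8 were higher and 0 lower, with a median log2 ratio of 1.93 over the 13 past the level filter. *Enkur*, a protein of the doublet, was at 178, 128 and 171 CPM against 9.94, 30.8 and 46.8 CPM. *Tekt1*, a tektin, was at 50.3, 75.6 and 82.3 CPM against 4.15, 18.3 and 22.4 CPM. The groups did not overlap for either gene, but both were named because they were called higher, so this is no separate support.

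Of 24 genes for dynein chains and their assembly, 7 were higher and 0 lower, and of 16 genes for radial spokes, central pair and nexin links the counts were 7 and 0. *Ccdc114*, a docking protein of the outer dynein arm, was at 72.9, 50.7 and 56.1 CPM against 7.30, 12.3 and 15.9 CPM. *Rsph9*, a radial spoke protein, was at 141, 144 and 144 CPM against 43.2, 56.5 and 61.2 CPM. Of 21 genes for intraflagellar transport, which primary cilia use too, 2 were higher, *Ift122* and *Dync2li1*, and 0 were lower. Among 11 regulators, *Rfx2* and *Rfx3* were higher and *Myb*, a regulator of centriole amplification, was lower. *Foxj1* was at 60.3, 61.2 and 93.7 CPM against 17.8, 32.5 and 60.9 CPM, a log2 ratio of 1.07 ± 0.57 that did not reach 1 in each library. Of the centriole amplification genes *Plk4* was lower, and *Deup1* was at 0, 5.25 and 3.58 CPM. The other cells included the cycling sub-clusters named below, in the paragraph on proliferation. The part of these cycling cells in the lower calls of *Plk4* and *Myb* was not tested. No conclusion on centriole amplification is therefore drawn from those calls.

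Sub-cluster 15 had the highest levels of *Foxj1*, *Deup1* and *Tekt1* among the 4 sub-clusters set side by side here, and sub-cluster 10 the lowest. *Foxj1* was at 71.7 CPM in sub-cluster 5, 91.5 in sub-cluster 3, 14.1 in sub-cluster 10 and 740 in sub-cluster 15, as means over libraries. *Deup1* was at 2.94, 4.53, 0 and 441 CPM in the same order. *Tekt1* was at 69.4, 86.6, 5.37 and 278 CPM. Of 12 markers of multiciliated cells, 3 were higher in sub-cluster 5 (*Pifo*, *Tekt1* and *Rarres2*), 2 had no UMI in it (*Tmem212* and *Mcidas*), and their summed level was 581 to 591 CPM against 89.2 to 320 CPM. The part of free RNA in these levels was not tested. In P3 endothelial cells, thinned to 2000 UMIs, 0 of 604 cells had UMIs of 2 or more of the 4 genes *Riiad1*, *Pifo*, *Enkur* and *Tekt1*. Before thinning, at a median of 26510 UMIs, 2.98% had a UMI of *Riiad1*, 0.165% of *Pifo*, 1.49% of *Enkur* and 2.64% of *Tekt1*. Thinning from that depth removes most counts of each cell, so the count of 0 does not measure free RNA.

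The promoters of 4 of the named cilium genes are shown because these genes were high together. They are RefSeq sequences of 300 bases on GRCm38.p6, written 5′ to 3′ on the gene's strand, from upstream of the start site to just past it, with GTTGCC, a half-site of the motif bound by Rfx factors, in capitals on either strand. A RefSeq entry for *Riiad1* was not in the table used here.
Enkur (chr2:21205316-21205615, minus strand): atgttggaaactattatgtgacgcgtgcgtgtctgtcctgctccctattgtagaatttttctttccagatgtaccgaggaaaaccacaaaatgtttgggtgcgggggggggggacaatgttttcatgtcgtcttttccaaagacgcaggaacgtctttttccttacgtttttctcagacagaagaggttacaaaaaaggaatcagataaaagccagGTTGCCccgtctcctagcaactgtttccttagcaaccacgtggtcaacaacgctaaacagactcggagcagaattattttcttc
Tekt1 (chr11:72361833-72362132, minus strand): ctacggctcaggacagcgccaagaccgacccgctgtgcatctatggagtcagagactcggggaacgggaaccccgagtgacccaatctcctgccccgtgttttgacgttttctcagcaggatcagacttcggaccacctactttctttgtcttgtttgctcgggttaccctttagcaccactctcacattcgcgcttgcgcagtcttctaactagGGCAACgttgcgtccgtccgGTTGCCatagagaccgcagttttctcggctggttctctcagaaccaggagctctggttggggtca
Pifo (chr3:106014597-106014896, minus strand): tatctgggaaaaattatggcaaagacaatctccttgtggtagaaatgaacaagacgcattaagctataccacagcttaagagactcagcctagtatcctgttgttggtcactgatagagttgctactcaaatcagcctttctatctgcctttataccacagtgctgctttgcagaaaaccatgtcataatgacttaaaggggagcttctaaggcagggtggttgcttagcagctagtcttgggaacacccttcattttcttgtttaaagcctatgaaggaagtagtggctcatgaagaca
Capsl (chr15:9435778-9436077, plus strand): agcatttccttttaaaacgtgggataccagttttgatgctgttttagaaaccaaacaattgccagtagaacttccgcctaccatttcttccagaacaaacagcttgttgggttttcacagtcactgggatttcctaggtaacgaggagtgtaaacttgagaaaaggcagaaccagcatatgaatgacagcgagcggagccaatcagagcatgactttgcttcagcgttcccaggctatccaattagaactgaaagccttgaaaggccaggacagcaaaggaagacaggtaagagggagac

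The half-site stood 34 bases before the start site of *Enkur*, and 35 and 15 bases before that of *Tekt1*, and the letters were not found in the windows of *Pifo* and *Capsl*. It was in 12.7% of 27025 promoters, and in 43.1% of 65 promoters of the listed cilium structure genes. Of 271 promoters of genes higher in sub-cluster 5, 23.6% held it, and of 305 promoters of lower genes, 10.2%. TAAACA, a core that forkhead factors bind, was in 13.4% of all promoters, 8.01% of those of the genes compared, 12.9% of those of higher genes, 7.87% of those of lower genes and 15.4% of those of the cilium structure genes. The half-site was in 13.3% of the promoters of the genes compared. A match is a description and does not show binding.

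Among 20 transcription factors that pattern the telencephalon, *Gsx2* and *Fezf2* were higher and 0 were lower. *Gsx2* (chr5:75075601-75077893, GRCm38, plus strand) was at 65.3, 35.4 and 52.5 CPM in replicates 1, 2 and 3, and at 2.96, 3.50 and 5.76 CPM in the other cells. The log2 ratio was 3.36 ± 0.61, and its mean of 51.1 CPM was the highest of the 13 P3 sub-clusters, of which the next was sub-cluster 4 with 12.6 CPM. *Fezf2*, a zinc finger factor, was at 37.7, 9.18 and 21.5 CPM against 2.23, 2.05 and 5.59 CPM. *Six3*, a factor of the ventral forebrain, was at 163, 117 and 122 CPM. Of 47 patterning factors of the diencephalon, midbrain, hindbrain and spinal cord, 38 had no UMI in sub-cluster 5, and *Nkx6-2* was higher and *Nkx2-2* lower. Their summed level was 146 to 236 CPM, against 124 to 150 CPM in the other cells. The median log2 ratio was 0.51 over the 6 past the level filter. *Nkx6-2* was at 50.3, 59.0 and 97.9 CPM against 3.92, 16.0 and 25.3 CPM. In the study, sub-cluster 5 grouped with non-telencephalic astrocytes of a reference atlas. The study proposes that such cells may be contaminants from neighbouring regions, which was not tested here.

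Of 17 genes of proliferation, 12 were lower and 0 higher, with a median log2 ratio of -3.79. *Top2a*, the topoisomerase of dividing cells, was at 2.51, 2.62 and 2.39 CPM against 225, 168 and 204 CPM. *Mki67* was at 0, 0 and 0.597 CPM against 119, 77.3 and 83.6 CPM. The other cells included the cycling sub-clusters 6 and 8, and without them 264 genes in place of 421 were lower. The 10 lower genes outside the lists that the rule named were led by genes of mitosis and DNA replication such as *Prc1*, *Pbk* and *Pclaf*, with mean log2 ratios of -4.44 to -6.34.

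Of 15 genes that the study names as immature, 5 were lower (*Olig1*, *Olig2*, *Egfr*, *Id1* and *Id3*) and 0 higher, with a median log2 ratio of -0.71. *Olig1*, a factor of the oligodendrocyte lineage and of immature ventral astroglia, was at 5.03, 44.6 and 36.4 CPM against 430, 435 and 446 CPM. Of 12 mature genes, 3 were lower (*Aqp4*, *S100b* and *Gpc5*) and 0 higher, with a median of -0.04. *Aqp4*, the water channel of astrocyte endfeet, was at 128, 94.9 and 113 CPM against 435, 300 and 317 CPM. The study chose both lists on these samples. Of 7 genes of telencephalic astrocytes, *Dbx2* and *Lrig1* were lower, and *Dbx2*, a homeodomain factor, was at 10.1, 9.18 and 8.95 CPM against 106, 108 and 96.3 CPM.

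Of 23 receptors of glia for neurotransmitters, 7 were lower and 1 higher, with a median log2 ratio of -1.86 over the 11 past the level filter. *Grm5*, the metabotropic glutamate receptor mGluR5, was at 5.03, 2.19 and 1.79 CPM against 218, 153 and 157 CPM, and *Grm3* at 12.6, 21.9 and 13.1 CPM against 168, 121 and 136 CPM. The higher receptor was *Gabrb1*, a GABA-A subunit, at 136, 59.9 and 101 CPM against 32.5, 26.3 and 35.2 CPM. Of 14 transporters, 3 were lower (*Slc6a9*, *Slc6a11* and *Slc7a11*) and 0 higher. Of 13 channels and junction genes, 3 were lower and 2 higher, the potassium channels *Kcnk2* and *Kcnn2*. *Kcnk2*, the channel TREK-1, was at 352, 422 and 411 CPM against 154, 164 and 193 CPM.

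Signalling pathways differed by member. Of 30 Wnt genes, *Fzd5*, *Fzd8* and *Sfrp1* were higher and *Fzd9*, *Sfrp2* and *Nkd1* lower. *Sfrp1*, a secreted Wnt antagonist, was at 425, 432 and 477 CPM against 117, 124 and 185 CPM. Of 20 FGF genes, 4 were lower, the receptor *Fgfr3* and the targets and feedback genes *Spry1*, *Dusp6* and *Etv4*, and 0 were higher. *Etv4* was at 2.51, 10.1 and 4.18 CPM against 98.5, 74.9 and 83.2 CPM. Of 24 BMP and TGF-beta genes, *Bmp6* and *Id4* were higher and *Bmp7*, *Id1*, *Id2* and *Id3* lower. *Id4*, an inhibitor of helix-loop-helix factors, was at 488, 361 and 291 CPM against 120, 112 and 117 CPM, and *Id3* at 349, 285 and 239 CPM against 1048, 1240 and 1069 CPM. Members of the Id family thus lay on both sides. Of 18 Notch genes, *Dlk1* and *Jag1* were higher and *Heyl*, *Dner* and *Nrarp* lower, while the log2 ratio of *Jag1* turned from 1.26 to -0.20 when cells were thinned to 2000 UMIs. Of 13 Hedgehog genes 0 were called in either direction.

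Of 30 guidance genes, 4 were higher (*Slit2*, *Efnb3*, *Epha3* and *Ephb1*) and *Nrp1* was lower. Of 18 cadherins and protocadherins, 5 were lower and *Pcdh8* was higher, and of 20 matrix and synaptogenic genes, 4 were lower, among them the proteoglycans *Ncan* and *Bcan*. Of 12 immediate early genes, 4 were lower. *Junb* was at 17.6, 115 and 138 CPM against 255, 391 and 392 CPM, so that replicate 1 lay apart from the others in sub-cluster 5. Of 15 fibrous or reactive genes, 4 were lower and 2 higher, *C4b* and *S100a6*, of which *S100a6* was at 1159, 1088 and 889 CPM against 206, 349 and 321 CPM. Of 23 broadly used neural factors, *Tox*, *Zfhx4* and *Id4* were higher and *Id1*, *Id2* and *Id3* lower. Of 7 genes high in astrocytes outside the telencephalon, *Itih3* was higher and *Agt*, *Slc6a9*, *Slc6a11* and *Timp4* were lower. Of 17 radial glia genes *Egfr* was lower, of 6 factors studied for maturation *Fezf2* was higher and *Dbx2* lower, and 0 were called of 18 lipid genes and of 17 genes of retinoid and thyroid hormone handling. No member of the Zic family passed the level filter.

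**Figure D3:**
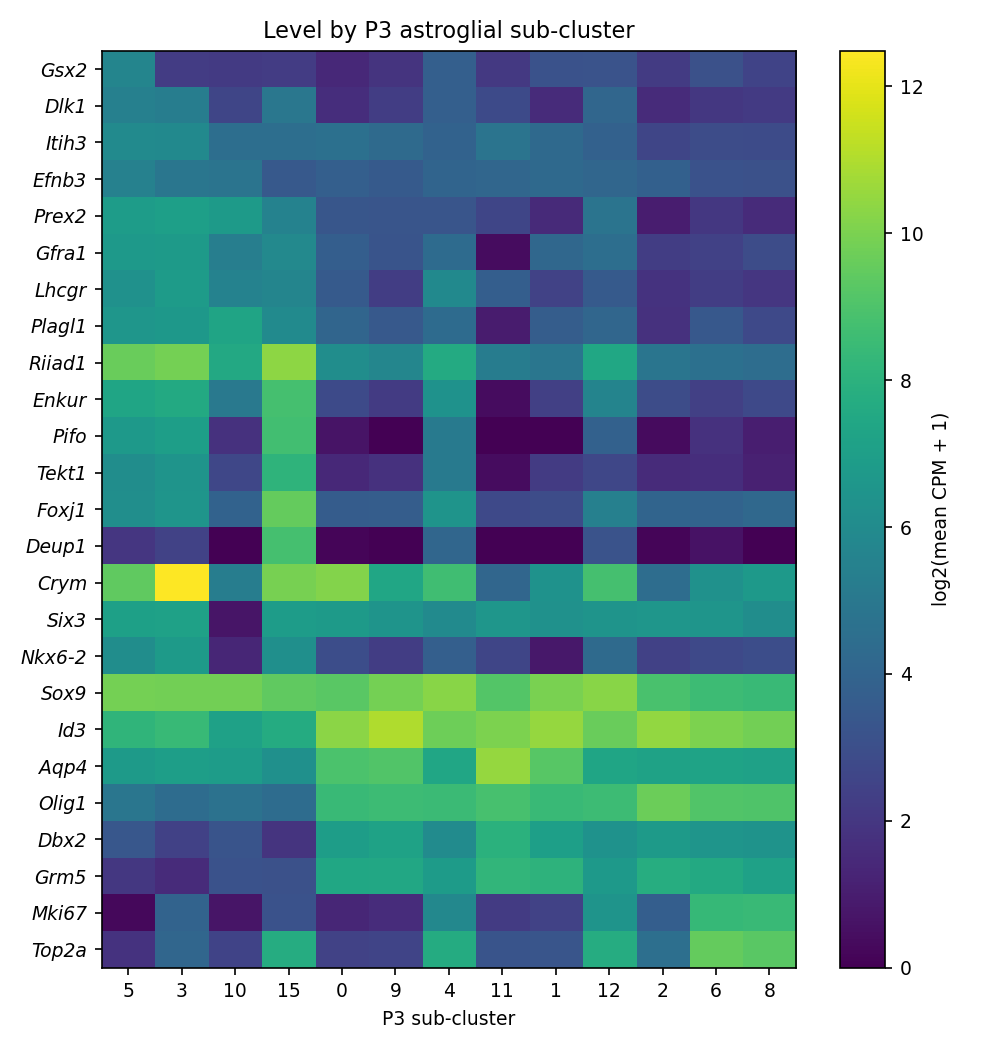
Level, as log2(mean CPM + 1), of 25 genes (rows) in the 13 P3 sub-clusters (columns), over libraries with at least 10 cells of the sub-cluster. *Gsx2* was at 51.1 CPM in sub-cluster 5 and at most 12.6 CPM elsewhere, and the cilium genes were high in sub-clusters 5, 3 and 15.

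Of 10 microglial markers, 7 had no UMI in sub-cluster 5 (*C1qa*, *C1qb*, *C1qc*, *Csf1r*, *Cx3cr1*, *P2ry12* and *Aif1*), and their sum of 41.8 to 47.8 CPM stood against 18.0 to 24.6 CPM in the other cells. *Pecam1* and *Cdh5* of endothelial cells had no UMI (sum 7.54 to 36.4 CPM against 19.4 to 43.3 CPM), nor had *Pdgfra* and *Sox10* of oligodendrocyte precursors (12.6 to 87.0 CPM against 570 to 605 CPM). Of the 9 oligodendrocyte markers, *Mog*, *Mobp* and *Opalin* had no UMI, and the sum of 140 to 216 CPM, against 126 to 145 CPM, was mostly *Cnp*. Neuronal markers summed to 43.3 to 47.7 CPM against 72.2 to 87.6 CPM, with *Gad1*, *Gad2*, *Slc17a6*, *Slc17a7* and *Nefl* at 0 and *Stmn2* higher. Fibroblast markers summed to 42.7 to 62.6 CPM against 11.2 to 25.6 CPM, with *Dcn*, *Lum*, *Col3a1* and *Apod* at 0 and *Ogn* higher. Mural, choroid plexus and blood markers summed to at most 88.0, 35.0 and 11.3 CPM, against at most 159, 27.1 and 13.1 CPM in the other cells. Tanycyte markers summed to 1169 to 1459 CPM against 783 to 1479 CPM, with *Crym* the largest, and those of olfactory ensheathing cells to 8372 to 16125 CPM against 18682 to 24800 CPM, almost all *Fabp7*. Their part in the results was not tested.

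Sub-cluster 3 was most like sub-cluster 5. Over 10506 genes, centred on the mean of the P3 sub-clusters, the profile of sub-cluster 5 had a Pearson r of 0.82 with that of sub-cluster 3, 0.47 with 10 and 0.46 with 15, and -0.62 with the cycling sub-cluster 8. These correlations are across genes of cells from the same libraries and are a description. Of 10080 genes, 8 were higher in sub-cluster 5 than in sub-cluster 3 (0.0794%) and 5 were lower (0.0496%). A call needs the ratio in each library, so leaving out a library can by construction let more genes pass. Without replicates 1, 2 or 3 in turn, 18, 28 and 34 genes were higher, and 5, 36 and 18 were lower.

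*Gsx2* was higher than in sub-cluster 3, where it was at 6.16, 2.06 and 2.72 CPM, with a log2 ratio of 3.54 ± 0.32. *Egfr*, the receptor of EGF, was at 15.1, 22.3 and 37.6 CPM against 3.08, 7.22 and 12.7 CPM. *Egfr* was named here after its values were seen, as were *Kcnh7*, *Hs3st1*, *Thrsp* and *Pak3*, which were higher too. Against the other P3 astroglial cells as a whole *Egfr* was lower, so its place depended on the cells compared.

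*Crym*, which encodes mu-crystallin, a binding protein of thyroid hormone, set the other direction. It was at 598, 814 and 635 CPM in sub-cluster 5 and at 4835, 6654 and 5693 CPM in sub-cluster 3, a log2 ratio of -3.07 ± 0.08. *Tmem159* was at 5.03, 12.7 and 10.7 CPM against 46.2, 75.3 and 59.8 CPM. Both genes are on chromosome 7, *Crym* at chr7:120186380-120202111 on the minus strand and *Tmem159* at chr7:120102353-120120992 on the plus strand, 65.4 kb apart. *Lmo1*, a LIM-only factor, was at 12.6, 100 and 59.7 CPM against 194, 215 and 154 CPM. The other lower genes were *Erbb4* and *Mki67*, both under 4 CPM in sub-cluster 5, and were named after their values were seen.

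**Figure D4:**
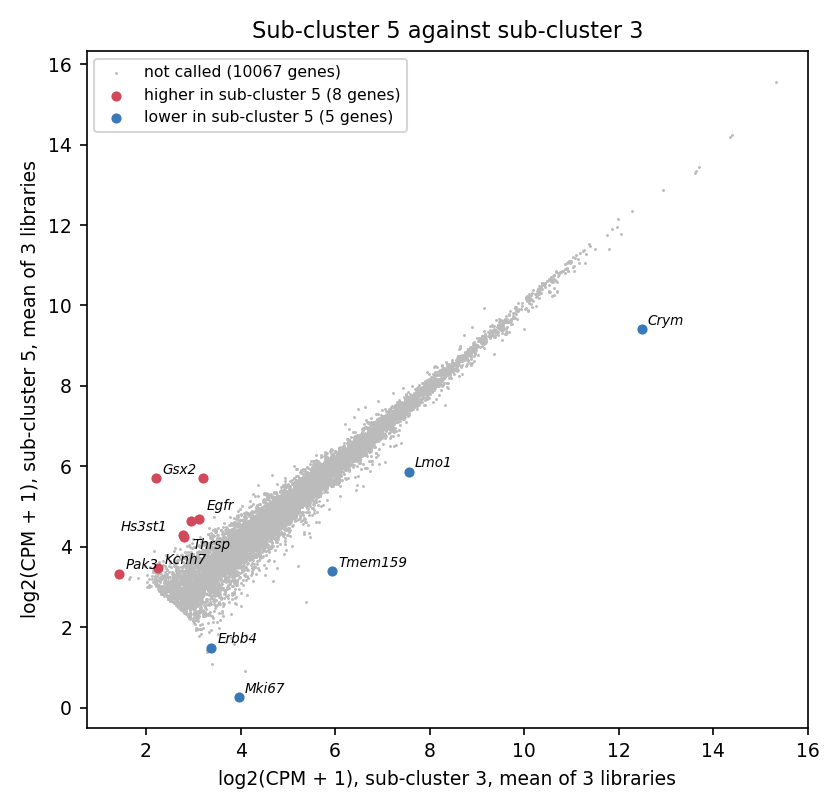
Mean log2(CPM + 1) over 3 libraries in sub-cluster 5 (y axis) and sub-cluster 3 (x axis) for 10080 genes, with called genes in colour and 11 of them named. The 8 higher and 5 lower genes stand off the diagonal, *Crym* furthest at high level.

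Against sub-cluster 10, of 10063 genes 253 were higher (2.51%) and 146 lower (1.45%). *Six3* was at 163, 117 and 122 CPM against 0, 0 and 1.83 CPM, and *Basp1*, a protein of growth cones, at 186, 143 and 127 CPM against 0, 0 and 1.83 CPM. *Nkx6-2* and the cilium genes *Meig1* and *Cfap126* were also among the most different, each at most 4.57 CPM in sub-cluster 10. In the other direction *Tfap2c* and *Dmrta2*, the latter a factor of the dorsal telencephalon, were at 34.9 to 68.5 CPM and 66.4 to 77.6 CPM in sub-cluster 10, and at most 0.597 and 2.98 CPM in sub-cluster 5. *Hopx*, a homeodomain-only protein of radial glia, was at 0, 4.37 and 20.3 CPM against 38.4, 318 and 356 CPM. *Cpne4* and *Gap43* were lower too. Without replicate 3, 435 genes were higher and 285 lower, and without replicate 2, 224 were lower.

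Against sub-cluster 4, of 9944 genes 292 were higher (2.94%) and 134 lower (1.35%), but sub-cluster 4 had 3 and 12 cells in replicates 1 and 2, and the median log2 ratio of all genes was 1.15. In replicate 3 alone, with 719 cells of sub-cluster 4, 675 genes were higher and 964 lower. There *Prex2* was at 125 CPM against 17.5 CPM, *Gfra1* at 124 against 25.2 CPM, *Nkx6-2* at 97.9 against 25.2 CPM and *Grm5* at 1.79 against 115 CPM. *Ube2c*, *Pbk* and *Ccna2*, genes of the cell cycle, were at 2.39, 1.79 and 1.79 CPM against 337, 144 and 108 CPM. Without replicates 2 or 3 in turn, 553 and 1751 genes were higher, and without replicates 1, 2 or 3 in turn 445, 249 and 330 were lower.

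Sub-cluster 5 was not uniform. In the clustering of all cells, 626 of its 730 P3 members (85.8%) fell in cluster AST_P3_1 and 86 (11.8%) in AST_P3_11, which had 62 members in replicate 2, 24 in replicate 3 and none in replicate 1. In replicates 2 and 3, of 6048 genes with a mean of at least 20 CPM, 30 were higher and 76 lower by a log2 ratio (pseudocount 5) of at least 1 in both libraries in the AST_P3_11 members. *Gsx2* was at 115 and 114 CPM in the AST_P3_11 members, and at 21.5 and 47.3 CPM in those of AST_P3_1. *Ccnd2*, a cyclin of progenitors, was at 664 and 896 CPM against 282 and 378 CPM. Both genes were higher in the smaller group in both libraries.

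*Crym* was at 52.9 and 40.7 CPM in the AST_P3_11 members against 957 and 700.0 CPM. *Nkx6-2* was at 5.88 and 8.15 CPM against 69.7 and 107 CPM, *Riiad1* at 226 and 277 CPM against 874 and 887 CPM, and *Tekt1* at 11.8 and 24.4 CPM against 87.5 and 89.3 CPM. The AST_P3_11 members held only 340392 UMIs in replicate 2 and 122773 in replicate 3. Their low values, such as those of *Nkx6-2* and *Tekt1*, thus rest on few counts. Of all calls against the other P3 astroglial cells, 95.4% of the higher and 95.5% of the lower genes were found again with the AST_P3_1 members alone. These members are 85.8% of the cells and all 54 of replicate 1, so most counts are shared and the repeat is not independent.

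Shares of cells were compared after each cell was thinned to 2000 UMIs, which left 718 of 730 cells of sub-cluster 5. *Gsx2* had a UMI in 7.52% of them (54 of 718, Wilson interval 5.81% to 9.68%), and in 17.8% before thinning at a median of 5840 UMIs. It was found in 0 of 776 cells of sub-cluster 3, where a count of 0 allows up to 0.387% of cells with a UMI at this depth (limit of 3 counts; before thinning the share was 1.54%), 1.23% of sub-cluster 10 and 0 of 604 endothelial cells, where the same limit is 0.497% and the median was 26510 UMIs before thinning. Within sub-cluster 5 the share was 23.8% of 84 AST_P3_11 members (16.0% to 33.9%) and 5.47% of 622 AST_P3_1 members (3.94% to 7.54%), pooled over libraries. In replicates 2 and 3 it was 25.0% and 20.8% of AST_P3_11 members, against 3.24% and 6.95% of AST_P3_1 members. *Crym* was found in 52.6% of sub-cluster 5 and 99.9% of sub-cluster 3.

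Of the 718 thinned cells, 34.1% (30.7% to 37.7%) had UMIs of 2 or more of the 4 genes *Riiad1*, *Pifo*, *Enkur* and *Tekt1*. This compared with 41.6% of sub-cluster 3, 2.46% of sub-cluster 10, 80.0% of sub-cluster 15 and 0.236% of sub-cluster 0. The 4 genes were named because they were high in sub-cluster 5, so a higher share than in sub-cluster 0 was fixed by their choice. *Riiad1*, in none of the cilium lists, had a UMI in 72.8% of sub-cluster 5 and 29.5% of sub-cluster 10. The share with 2 or more of the 4 genes was 38.7% in the AST_P3_1 members and 4.76% in those of AST_P3_11. Cells with and without a *Gsx2* UMI had shares of 29.6% (16 of 54) and 34.5% (229 of 664). Among AST_P3_1 members the values were 44.1% (15 of 34, 28.9% to 60.5%) and 38.4% (226 of 588, 34.6% to 42.4%). These intervals pool cells over libraries and cover counting error only, so no conclusion is drawn from their overlap. Transcripts of *Gsx2* and of cilium genes thus occurred together in some cells. *Foxj1* was found in 14.1% of cells and *Deup1* in 0.836%, against 64.8% and 38.6% in sub-cluster 15.

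**Figure D5:**
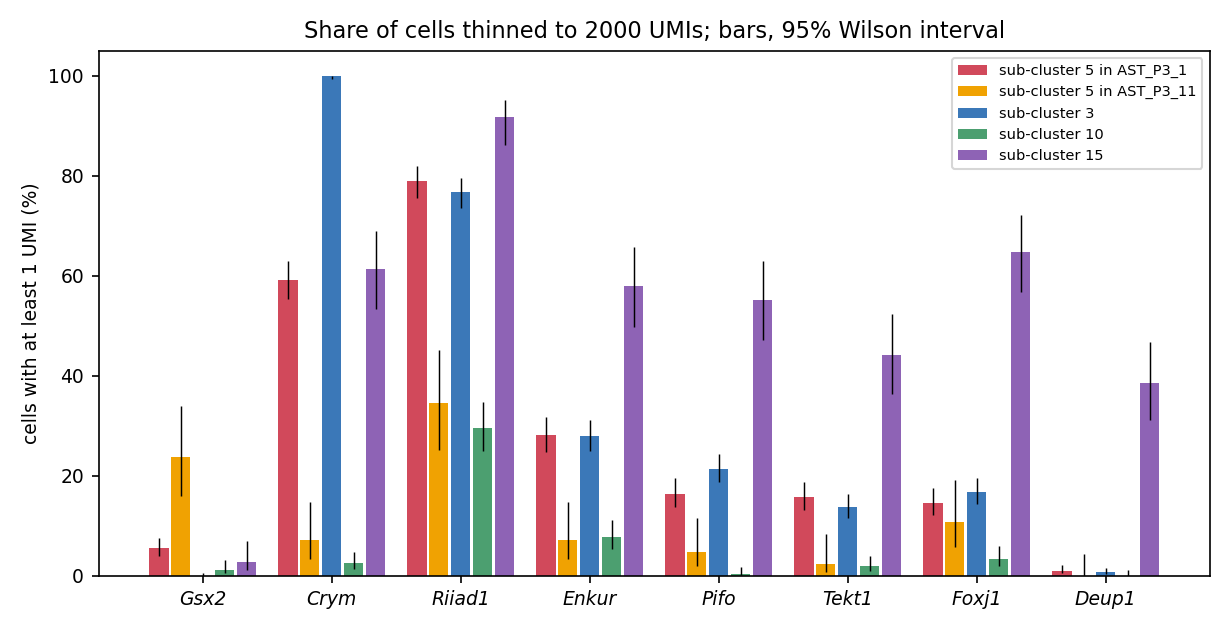
Percent of cells with at least 1 UMI after thinning each cell to 2000 UMIs, for 8 genes, in the AST_P3_1 and AST_P3_11 members of sub-cluster 5 and in sub-clusters 3, 10 and 15, with 95% Wilson intervals. *Gsx2* was found in 23.8% of the AST_P3_11 members and 5.47% of the AST_P3_1 members, and *Deup1* was frequent in sub-cluster 15.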

How the data were processed

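Single-cell libraries of ACSA2-enriched striatal cells were analysed, 3 of P3 and 3 of 3m mice. The deposited counts are UMIs per gene and cell, made by the authors with Cell Ranger on mm10 and merged without normalization (32285 genes, 16690 barcodes). The authors filtered cells on detected genes and mitochondrial share, clustered them with Seurat (3.1.1 in the submitters' processing notes) and deposited cluster numbers and UMAP coordinates, and a pseudotime score from Slingshot, which only 35 members carry. The 14373 annotated cells had at least 501 genes and under 10.0% mitochondrial UMIs. Clusters were taken as deposited and doublets were not removed.

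UMIs were summed per library and set of cells and scaled to CPM, and ratios used a pseudocount of 1 CPM (numpy 2.4.6). Calls are descriptions without a test. The calling step was checked on simulated counts that had no spread between libraries beyond counting error, so the check does not vouch for the calls in the real data. The single test is an exact sign-flip permutation. Alternatives included TMM (edgeR 4.0.16). Genes were named by rule: called members of each list and up to 4 more by level, the 14 most raised and 10 most lowered others with at least 50 CPM, and 5 each way per neighbour, leaving out predicted genes; some genes are not reported here. Members and lists were chosen with earlier results of these data known, and the cilium and imprinted lists were compiled after values were seen. Coordinates are from GENCODE M21 (GRCm38). The study describes the replicates as independent preparations, and its methods pooled the brains of several animals for each. The p-values measure only the spread between these libraries, in which biological and technical parts cannot be separated. Genes with near-identical copies are uncertain.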

Additional observations from a re-analysis of the deposited data

How the results depend on the processing

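The number of genes higher than in the other P3 astroglial cells was 201 with a pseudocount of 5 and 186 with a filter at 20 CPM, all among the 351. It was 221 with cells thinned to 2000 UMIs (173 among the 351), 211 without the cycling sub-clusters 6 and 8 (207), 93 with other sub-clusters weighted equally (89), and 612 without sub-clusters 3, 4, 10, 12 and 15 (344). The number of lower genes was 185 with the filter at 20 CPM, all among the 421, and 264 without the cycling sub-clusters (230 among the 421). Leaving out each P3 replicate gave 396 to 527 higher and 455 to 503 lower genes. Against sub-cluster 3, a pseudocount of 5 gave 3 higher and 3 lower genes and thinning 25 and 18, and leaving out each replicate gave 18 to 34 higher and 5 to 36 lower genes. Against sub-cluster 4, a pseudocount of 5 gave 174 higher genes, thinning 966 higher and 80 lower, and replicate 3 alone, chosen after seeing the data, 675 and 964, while leaving out replicates gave 332 to 1751 higher and 249 to 445 lower. Against sub-cluster 10, leaving out replicates gave 342 to 435 higher and 217 to 285 lower genes. The filters and sample counts change by construction how many genes can pass. The cause was not tested for the other settings. *Jag1* was reversed by thinning (log2 ratio -0.20). Of 126 named genes that were called, the other 125 kept their direction under thinning, and 126 did so under each other alternative run. For the filters, the pseudocounts and the left-out replicates this was fixed in advance, since a called gene had the same direction in each library. Their log2 ratios moved by more than the SD over libraries for 48 genes with a pseudocount of 5, 41 with equal weights, 34 with thinning, 34 without sub-clusters 3, 4, 10, 12 and 15, 28 without the cycling sub-clusters and 22 or fewer under the others. The share of cells and the difference in UMIs moved by less than the spread between libraries or kept their direction under each alternative run. No paired analysis was possible because the gene results come from no test to which a replicate block could be added. The ratios, and the differences in the sign-flip test, were already formed within libraries. With 54 cells in replicate 1, 1 UMI there is worth over 2 CPM, so low genes rest on few counts.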

Other observations

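Levels in the astroglial sub-clusters of 3m mice are given side by side with those of sub-cluster 5, without a test, since age, depth and cell number differ. *Prex2*, at 119 CPM in sub-cluster 5, was at 413, 339, 385 and 260 CPM in sub-clusters 7, 13, 14 and 16. *Gsx2* was at most at 1.5 CPM there, and *Riiad1*, at 804 CPM in sub-cluster 5, at 14.2, 43.7, 14.1 and 11.3 CPM. *Crym* was at 2701, 401, 1667 and 629 CPM. Sub-cluster 14 was read from 1 library and sub-cluster 13 from 2.

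Imprinted genes of growth control formed a list compiled after values had been seen. Of 23 such genes in the table, 6 were higher in sub-cluster 5 than in the other P3 astroglial cells and 0 were lower, where 3.41% of all genes compared were higher and 4.09% lower. *Plagl1*, a zinc finger factor, was at 90.5, 97.1 and 90.7 CPM against 14.9, 19.9 and 23.9 CPM. *Dlk1* was at 50.3, 26.7 and 50.1 CPM against 2.10, 5.72 and 9.65 CPM, and *Meg3*, a noncoding RNA, at 314, 108 and 115 CPM against 24.4, 21.2 and 32.5 CPM. These genes are neighbours on chromosome 12, 77.7 kb apart. *Rian*, a noncoding RNA of the same domain, and *H19* and *Peg10* were higher as well, while *Igf2* and *Cdkn1c* were not called.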
